A study of Mus musculus with 8 samples.

Results

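The smooth muscle and myofibroblast contractile genes are 10 genes, Acta2, Actg2, Tagln, Cnn1, Smtn, Lmod1, Tpm1, Tpm2, Myh11 and Myl9, which were taken by gene symbol from the 22520 protein-coding genes of the deposited table. Their products build the thin and thick filaments with which smooth muscle cells, pericytes and myofibroblasts contract. In smooth muscle, calcium and calmodulin activate myosin light chain kinase, which phosphorylates the regulatory light chain of myosin, and RhoA and its kinases slow the removal of that phosphate. Transcription of these genes depends on serum response factor with its coactivators of the myocardin family, and in injured liver Acta2 is the usual marker of activated stellate cells and portal myofibroblasts.

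The mRNA of cells isolated from mouse liver was sequenced for 4 WT and 4 LRP1 eKO libraries, all from C57BL/6 mice at postnatal day 14. Both groups carried floxed Lrp1 alleles (LRP1 f/f), the LRP1 eKO mice also carried the inducible transgene (Cdh5-CreER+/-), and their WT littermates lacked it (Cdh5-CreER-/-). Cdh5 drives the transgene in endothelial cells (ECs), so that CreER, present in LRP1 eKO mice alone, and Lrp1 loss cannot be told apart. The inducing agent is not given in the sources used here. The cells were selected with PECAM-1 antibody beads, and how many mice gave a library is not stated, so that p-values measure the spread between these libraries, which may be technical.

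The values are a quantile-normalized signal, which gives every library nearly the same distribution and a total between 484445 and 485947, and the sequencing depth is unknown. The signal was tested with limma on the log2(signal + 1) scale for the 11391 genes that reached a signal of 1 in 4 or more libraries, with Benjamini-Hochberg adjustment over all of them. Lrp1 itself went from 65.5 ± 13.3 in WT to 4.41 ± 1.65 in LRP1 eKO libraries (SD, n = 4 each; log2 fold change -3.66, limma adjusted p = 2.8e-06). WT replicate 4 stood farthest from its group median for 61.7% of tested genes, and LRP1 eKO replicate 2 for 37.2%. The EC label was not borne out by the defining markers Cdh5 and Pecam1. Cdh5 lay between 1.26 and 2.27 in WT and between 2.21 and 4.99 in LRP1 eKO libraries, and Pecam1 between 1.53 and 3.85 in all 8. All 12 EC markers examined summed to 25.6 to 28.9 in WT and 24.9 to 49.7 in LRP1 eKO libraries. In the same libraries Msln, a mesothelial surface protein, had mean signals of 1020 (WT) and 1305 (LRP1 eKO), and the cells are therefore called liver cells here. In bulk RNA, fewer cells of a type and less RNA per cell cannot be told apart.

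The promoter windows of Acta2 and Myl9 are shown because both hold the CArG box form with 1 G or C in its core. The CArG box is the element that binds serum response factor, and its exact form was found in Myl9 but not in Acta2. Acta2 passed the test described here while Myl9 did not. The window of a gene holds the 250 bases before its RefSeq start on GRCm38.p6 and 50 bases after it. Capitals mark the CArG boxes and the matches with 1 G or C in the A/T core, and all sequences run 5′ to 3′ on the strand of the gene. Acta2 is shown as 2 excerpts of 30 bases, chr19:34255438-34255467 and chr19:34255388-34255417 on the minus strand, which lie inside the first exon of a longer transcript in GENCODE M21. Myl9 is shown from the window edge to the outermost GENCODE start, chr2:156775214-156775419 on the plus strand.
Acta2, distal match: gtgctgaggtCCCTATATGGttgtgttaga
Acta2, proximal match: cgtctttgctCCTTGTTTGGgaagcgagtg
Myl9: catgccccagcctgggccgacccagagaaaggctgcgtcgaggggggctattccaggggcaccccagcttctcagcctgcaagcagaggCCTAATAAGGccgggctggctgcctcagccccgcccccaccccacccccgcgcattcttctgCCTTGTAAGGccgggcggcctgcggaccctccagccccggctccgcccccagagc

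RefSeq windows of 300 bases, reaching 50 bases past the start, were matched by symbol for 7 of the 10 contractile genes, and Actg2, Tagln and Myh11 were not matched. The CArG box, searched on both strands, was found in 1 of the 7 windows (Myl9), against 1.63% of all 32851 windows. The form with 1 G or C in the core was found in 2 windows, those of Acta2 and Myl9, against 8.5% of all windows. CATTCC, the MCAT element of TEAD factors, was found on either strand in 4 windows (Acta2, Tpm1, Lmod1 and Smtn), against 14.7% of all windows. The windows of Cnn1 and Tpm2 held none of these letters, and no binding was measured.

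**Figure D1:**
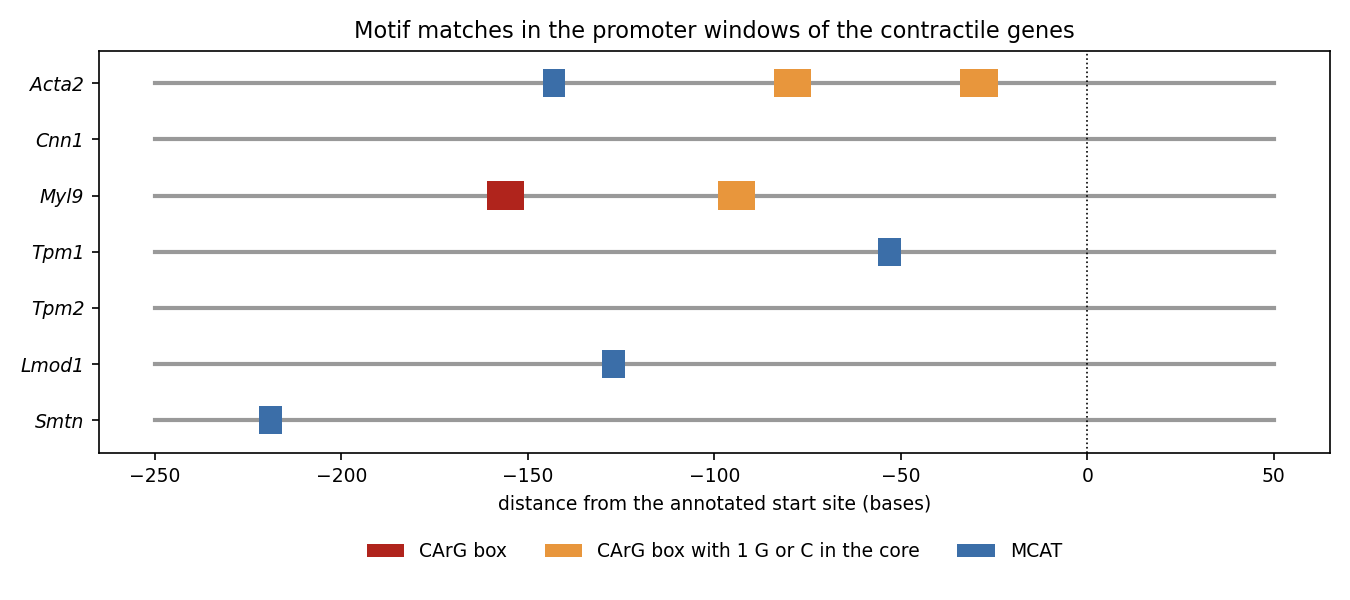
Positions of motif matches in the 7 matched promoter windows (one line per gene, x axis: distance from the annotated start in bases). Red marks the CArG box, orange the form with 1 G or C in the core and blue the MCAT element. Matches in Acta2 and Myl9 lie within 250 bases before the start, and the lines of Cnn1 and Tpm2 are empty.

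Both smooth muscle actins rose in LRP1 eKO libraries. Acta2, the alpha actin of vascular smooth muscle and myofibroblasts (chromosome 19 of GRCm38, 34241090 to 34255590), had WT signals of 832, 837, 820 and 756 and LRP1 eKO signals of 1086, 1046, 1099 and 1032 in replicates 1 to 4. The groups did not overlap, and WT replicate 4 was the lowest library. Its mean was 1.31 times the WT mean in LRP1 eKO libraries, with a log2 fold change of 0.39 (standard error 0.047, limma adjusted p = 0.000177), and 99.7% of the genes in the table had a lower level. Actg2, the gamma actin of visceral smooth muscle (chromosome 6, 83512905 to 83536265), had WT signals of 7.23, 7.14, 7.41 and 10.1 and LRP1 eKO signals of 14.6, 15.6, 14.3 and 13.2. Here WT replicate 4 was the highest WT library and still lay below every LRP1 eKO library. Its mean was 1.81 times the WT mean, with a log2 fold change of 0.79 (standard error 0.10, limma adjusted p = 0.000272), the largest of the 10 genes on this scale. At 50 bases, 0.326% of the stretches of Acta2 coding transcripts also occur in a gene of the compared families, and 0% of those of Actg2.

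**Figure D2:**
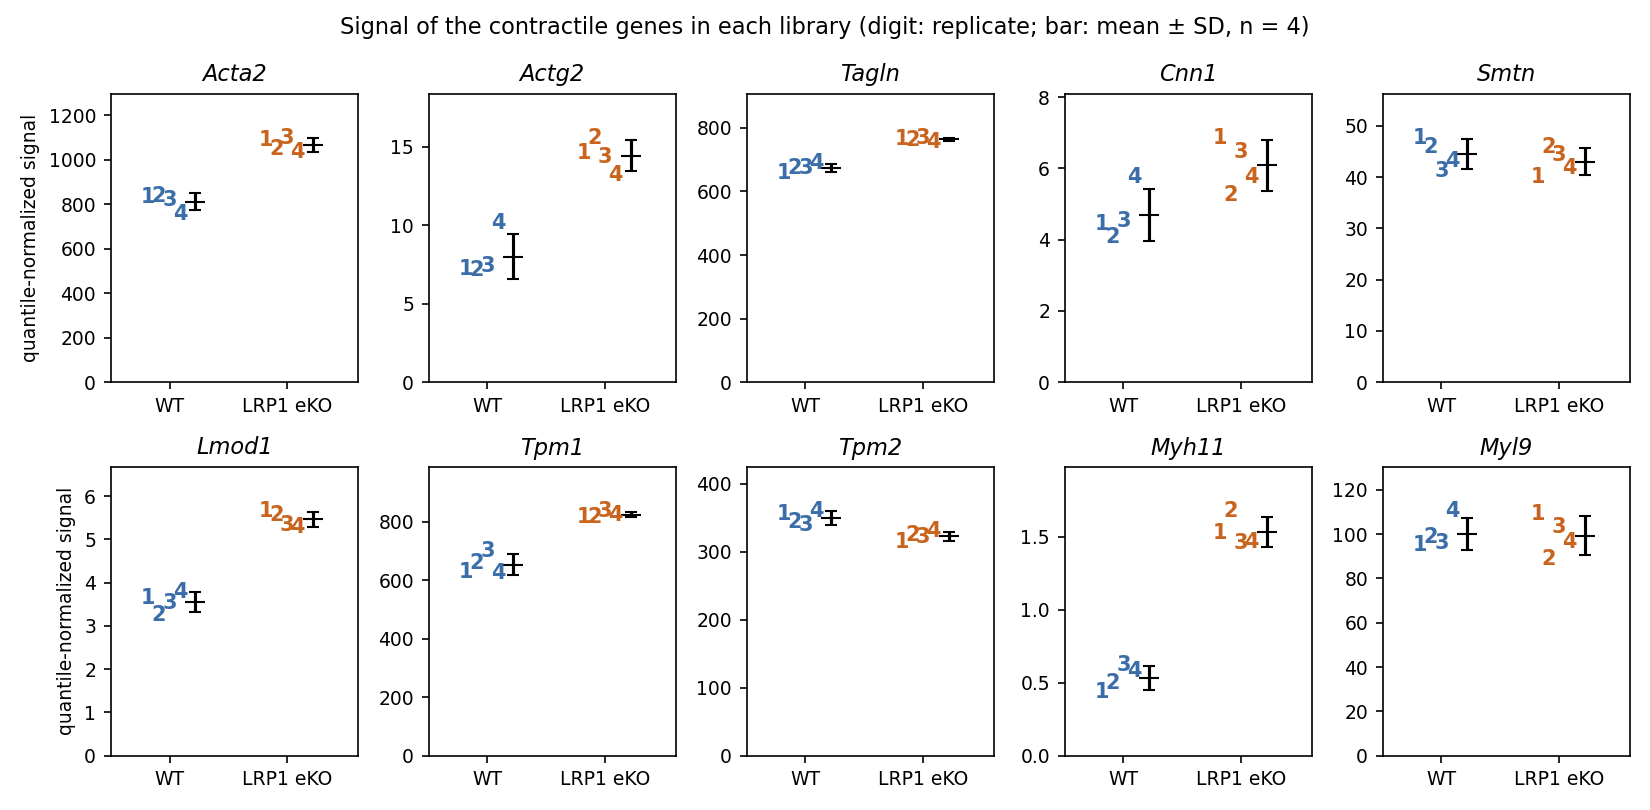
Quantile-normalized signal of the 10 contractile genes in each library (y axes start at 0; digits give the replicate number, blue for WT and orange for LRP1 eKO, and bars give the mean ± SD of 4 libraries). The groups are apart for Acta2, Actg2, Tagln, Lmod1, Tpm1, Tpm2 and Myh11, and overlap for Cnn1, Smtn and Myl9, with Tpm2 lower and the other 6 higher in LRP1 eKO libraries.

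Of the 4 thin filament proteins, 3 rose and smoothelin did not pass the test. Tagln, which encodes the actin cross-linker transgelin or SM22 alpha (chromosome 9, 45929619 to 45936058), had WT signals of 659, 673, 675 and 689 and LRP1 eKO signals of 767, 763, 770 and 756 in replicates 1 to 4. The groups did not overlap, but the step was small, with a log2 fold change of 0.18 (standard error 0.036, limma adjusted p = 0.00337). Tagln overlaps 108 bases of Pcsk7 and the antisense gene Gm48529 on the other strand, and whether reads were counted by strand is not stated for this table. Lmod1, which encodes the actin nucleator leiomodin 1 (chromosome 1, 135324807 to 135368065), had WT signals of 3.65, 3.26, 3.52 and 3.78 and LRP1 eKO signals of 5.66, 5.56, 5.34 and 5.30. Without any overlap, Lmod1 rose by 0.51 on the log2 scale (standard error 0.057, limma adjusted p = 0.000129).

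Cnn1, which encodes calponin 1, a thin filament protein that inhibits the myosin ATPase (chromosome 9, 22099216 to 22109630), had WT signals of 4.45, 4.06, 4.53 and 5.75 and LRP1 eKO signals of 6.86, 5.25, 6.46 and 5.76. The groups overlapped, because WT replicate 4 was above LRP1 eKO replicate 2. Its log2 fold change of 0.32 passed the test (standard error 0.10, limma adjusted p = 0.0314) but not without any of 6 libraries. The limma adjusted p was 0.072, 0.080 and 0.068 without WT replicate 1, 2 or 3 and 0.083, 0.080 and 0.052 without LRP1 eKO replicate 1, 3 or 4, and over the other alternatives it lay between 0.000474 and 0.10. Smtn, which encodes smoothelin (chromosome 11, 3517523 to 3540612) and overlaps Gm11946 and Gm11947 on the other strand, had WT signals of 47.7, 45.9, 41.1 and 43.2 and LRP1 eKO signals of 40.0, 46.0, 44.4 and 41.7. These overlapped, with a log2 difference of -0.05 (95% interval -0.18 to 0.089, limma adjusted p = 0.560).

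The tropomyosins, which lie along actin and gate its access to myosin, moved in opposite directions. Tpm1, alpha tropomyosin (chromosome 9, 67022590 to 67049406), had WT signals of 627, 661, 701 and 624 and LRP1 eKO signals of 818, 818, 837 and 824. The LRP1 eKO libraries were close together and all above WT, with a log2 fold change of 0.34 (standard error 0.046, limma adjusted p = 0.00045). Tpm2, beta tropomyosin (chromosome 4, 43514711 to 43523765), had WT signals of 355, 343, 339 and 360 and LRP1 eKO signals of 314, 324, 322 and 330. It was the 1 contractile gene that fell, by 0.11 on the log2 scale (standard error 0.038, limma adjusted p = 0.0389), without overlap. This call was lost when any of 6 libraries was left out, with a limma adjusted p of 0.093 and 0.061 without WT replicate 1 or 2 and of 0.095, 0.061, 0.090 and 0.057 without LRP1 eKO replicate 1, 2, 3 or 4. Over the other alternatives its limma adjusted p lay between 0.0156 and 0.0905.

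Of the myosin subunits, the heavy chain rose and the regulatory light chain did not pass the test. Myh11, the smooth muscle myosin heavy chain and the most restricted marker of differentiated smooth muscle (chromosome 16, 14194535 to 14291372), had WT signals of 0.437, 0.501, 0.621 and 0.577 and LRP1 eKO signals of 1.52, 1.68, 1.46 and 1.47. All LRP1 eKO libraries were above all WT libraries, at low signals in both groups. The ratio of means was 2.87, while the log2 fold change on the log2(signal + 1) scale, which understates changes at low signal, was 0.72 (standard error 0.066, limma adjusted p = 3.31e-05). Myh11 passed the filter on low signals only through its LRP1 eKO libraries, so that a tested difference was bound to be upward. Myl9, the regulatory light chain that myosin light chain kinase phosphorylates (chromosome 2, 156775420 to 156781658), had WT signals of 94.9, 98.7, 95.8 and 110 and LRP1 eKO signals of 109, 88.8, 103 and 96.3. The groups overlapped, and LRP1 eKO replicate 2 was the lowest library, with a log2 difference of -0.01 (95% interval -0.17 to 0.15, limma adjusted p = 0.923).

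In all, 8 of the 10 contractile genes had a limma adjusted p below 0.05, as had 41.2% of all tested genes. Of these, 7 were higher and 1 was lower, against 19.0% and 22.2% of all tested genes. Without Myh11, which had to differ upward, 6 of 9 were higher. At the additional 2-fold threshold of the study 0 of 10 passed in the limma fit, where 0.869% of all tested genes were higher and 0.79% lower, 1.66% together, and 8 of the 10 had an unadjusted p below 0.05. With a pseudocount of 0.1 in place of 1, Myh11 passed both thresholds. The groups did not overlap for 7 of the 10, against 42.6% of all tested genes, with 6 higher and 1 lower against 20.0% and 22.5%. Myh11 was among the 6 higher. The median log2 fold change was 0.33 for the 10 genes, 0.32 without Myh11, and -0.01 for all genes tested. For each of the 7 genes without overlap the exact two-sided permutation test gave p = 0.029, the smallest that 4 libraries against 4 allow, and for Cnn1 it gave 0.057. With both WT replicate 4 and LRP1 eKO replicate 2 left out, an alternative chosen after seeing the data, 7 were higher and 1 was lower.

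The levels of the 10 genes spanned a wide range. Across 11273 tested genes, which are not independent, the signal did not rise with transcript length (Spearman's rho -0.24), and because its unit before normalization is not stated, the order is given both as deposited and after division by the median length of the coding transcripts of each gene. In WT libraries the deposited order was Acta2, Tagln, Tpm1, Tpm2, Myl9, Smtn, Actg2, Cnn1, Lmod1 and Myh11, and among neighbors only Tagln and Tpm1 overlapped. After division by length Tagln came before Acta2 and the other ranks were kept. In LRP1 eKO libraries Tpm1 stood above Tagln without overlap in the deposited signal, and among neighbors only Cnn1 and Lmod1 overlapped. After division by length Tagln was again first, and Actg2 stood above Smtn. The lowest 4 signals were those of Actg2, Cnn1, Lmod1 and Myh11, whose expression is largely limited to smooth muscle, with WT means of 7.97, 4.70, 3.55 and 0.534.

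The 10 genes did not vary as a block within a genotype. After the mean of its genotype was subtracted from each log2 signal, Pearson's r over the 8 libraries ranged from -0.73 for Tpm1 with Tpm2 to 0.91 for Cnn1 with Myl9, with a median of -0.03 over the pairs of genes. Acta2 and Actg2 were opposed (r = -0.72), where WT replicate 4 was the lowest WT library for Acta2 and the highest for Actg2. By the same measure, the genes most like Acta2 among 8316 with a mean signal of at least 5 were Sgk1, Prpf8, Ubr2, Dab2 and Stat3 (r from 0.992 to 0.997), and the most opposed were Sub1, Rbx1, Dpcd, Ruvbl2 and Rpp30 (r from -0.996 to -0.990). All of these values share the same 8 libraries and their normalization. WT replicate 4 was farthest from its group median for 61.7% of tested genes, and its part in these values was not tested.

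Paralogs of the contractile genes that serve other cells did not move as one group. Of 22 in the table, 16 were tested, and 6 rose, 4 fell and 6 did not pass the test, against 19.0% of all tested genes higher and 22.2% lower (median log2 fold change 0.03). Actc1 and Smtnl2 passed the filter only through WT libraries, so that a tested difference in them was bound to be downward, and without them 6 of 14 rose and 2 fell. Actc1, the cardiac alpha actin, which immature skeletal muscle also makes, had WT signals of 2.43, 2.60, 1.94 and 2.82 and LRP1 eKO signals of 0.352, 0.584, 0.277 and 0.290. Its log2 fold change was -1.32 (limma adjusted p = 9.49e-06), in the direction that the filter set. Of the cytoplasmic actins, Actg1 rose by 0.28 (limma adjusted p = 0.0126, and 0.070 without the filter), and Actb had a log2 difference of 0.21 that did not pass (limma adjusted p = 0.0895). The leiomodins of striated muscle, Lmod2 and Lmod3, were below the filter and were fitted without it, with log2 fold changes of -0.79 and -0.16 (limma adjusted p = 0.000431 and 0.0108). For both, every LRP1 eKO library lay below every WT library, opposite to Lmod1.

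Among non-muscle myosins, Myh9, the heavy chain of myosin IIA, rose from 94.6 ± 12.9 to 164 ± 5.77 (SD, n = 4 each), or by 0.80 on the log2 scale (limma adjusted p = 0.000129). Myh10, the heavy chain of myosin IIB, fell from 45.9 ± 2.74 to 31.8 ± 1.70, or by 0.52 on the log2 scale (limma adjusted p = 9.99e-05). The non-muscle heavy chains thus went both ways, with Myh9 higher and Myh10 lower. Myh11 was also higher, in the direction that the filter set. The light chain Myl12a rose by 0.20 (limma adjusted p = 0.0121), and Myl12b did not pass (log2 difference -0.14, limma adjusted p = 0.199). Myl6, the essential light chain, was lower by 0.14 (limma adjusted p = 0.034), a call lost without WT replicate 1 or 2 (0.056 and 0.077) and without LRP1 eKO replicate 1, 3 or 4 (0.081, 0.085 and 0.053). The calponins Cnn2 and Cnn3 rose by 0.30 and 0.20 (limma adjusted p = 0.001 and 0.0263), and that of Cnn3 was 0.058 and 0.063 without LRP1 eKO replicate 2 or 4. The tropomodulin Tmod3 rose by 0.38 and the smoothelin-like gene Smtnl2 fell by 0.53 (limma adjusted p = 0.00731 and 0.00367). The widely expressed Tpm3, Tpm4 and Tagln2, and also Tmod1, did not pass the test, with log2 differences of 0.03, 0.03, -0.11 and 0.01.

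**Figure D3:**
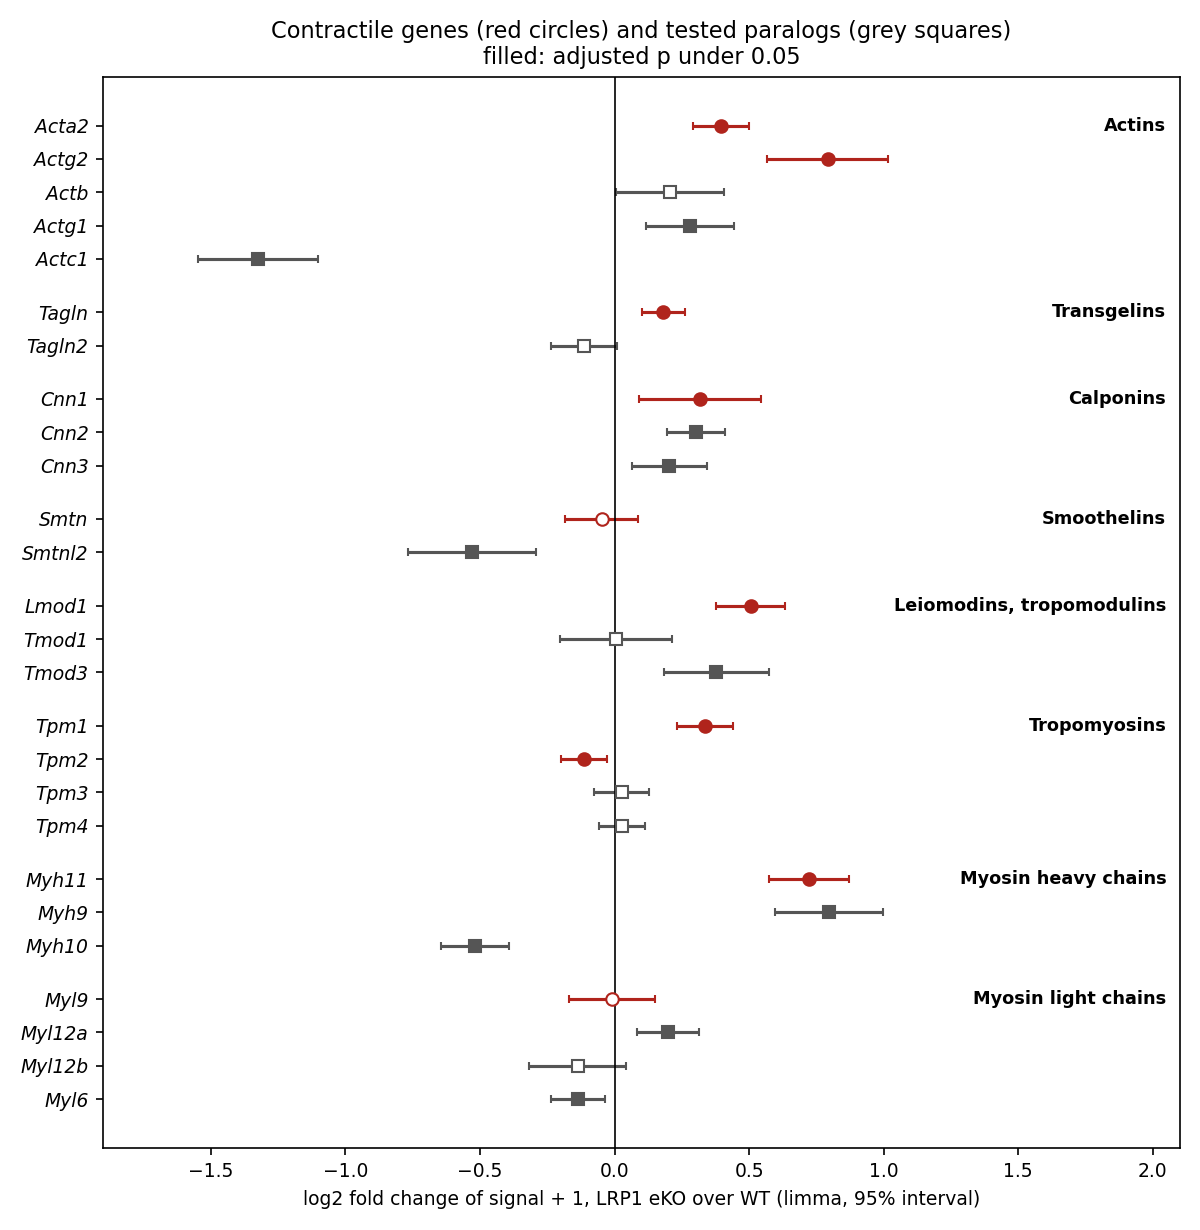
Log2 fold change of signal + 1, LRP1 eKO over WT, with 95% limma intervals for the contractile genes (red circles) and their tested paralogs (grey squares), grouped by protein family. Filled symbols have an adjusted p under 0.05. Acta2 and Actg2 lie to the right of 0 and Actc1 at -1.32, and Tpm1 and Tpm2 lie on opposite sides.

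Of 21 tested genes that switch contraction on and off, 8 rose, 4 fell and 9 did not pass, against 19.0% higher and 22.2% lower of all tested genes (median log2 fold change 0.11). Mylk, which encodes myosin light chain kinase, had WT signals of 20.4, 21.3, 20.95 and 19.8 and LRP1 eKO signals of 10.1, 9.83, 9.78 and 9.66. Within each genotype the libraries differed by little, and Mylk fell to 47.8% of its WT mean (log2 fold change -0.99, standard error 0.045, limma adjusted p = 3.86e-07). Agtr1a, a receptor for the vasoconstrictor angiotensin II, fell from 30.2 ± 1.51 to 16.7 ± 0.729 (SD, n = 4 each), or by 0.82 on the log2 scale (limma adjusted p = 3.56e-06). Arhgef12, an exchange factor that activates RhoA, also fell, by 0.82 on the log2 scale (limma adjusted p = 0.00314). Rhoa itself rose by 0.25 (limma adjusted p = 0.000957). Mylk thus fell, while its substrate Myl9 did not pass the test, and the difference between the 2 changes was not tested.

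Of the other smooth muscle cytoskeletal genes, 22 of 25 were tested, and 10 rose, 4 fell and 8 did not pass the test, against 19.0% higher and 22.2% lower of all tested genes (median log2 fold change 0.17). The share that fell was below that of all tested genes. The 4 with the smallest adjusted p were those that fell. Besides Mylk these were Mustn1, a small nuclear protein of the musculoskeletal system, with a log2 fold change of -1.37, Csrp2, a LIM protein of smooth muscle, with -0.59, and Pdlim3, an actinin-binding protein of muscle, with -0.99 (limma adjusted p = 2.31e-05, 0.000195 and 0.000221). Pdlim3 was under a signal of 1 in all LRP1 eKO libraries, so that it could only fall, and without it 3 of 21 fell. Mustn1 and Pdlim3 are also expressed in skeletal muscle.

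Of 13 tested IDs of transcriptional regulators of contractile genes, 6 rose, 2 fell and 5 did not pass, against 19.0% higher and 22.2% lower of all tested genes (median log2 fold change 0.18). The 5 include 2 IDs that share the symbol Tead1. Klf4, which represses contractile genes in cultured smooth muscle cells, had WT signals of 8.46, 8.99, 9.12 and 9.03 and LRP1 eKO signals of 14.5, 19.9, 15.1 and 16.2. Klf4 rose by 0.80 on the log2 scale (limma adjusted p = 9.78e-05), without overlap. Mkl2, which encodes the myocardin-related coactivator MRTF-B, rose by 0.33 (limma adjusted p = 0.00966). The groups did not overlap for Srf, which did not pass the test (log2 difference 0.13, limma adjusted p = 0.0962), and Myocd was under 0.18 in every library. Both Srf and Myocd were named after their values were seen. Tcf21 and Gata6 fell by 0.59 and 0.20 (limma adjusted p = 0.00112 and 0.0154). The number of regulators that rose was 3 without WT replicate 1 and 2 without LRP1 eKO replicate 1 or 3.

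Of 13 tested matrix genes of myofibroblasts, 6 rose, 1 fell and 6 did not pass, against 19.0% higher and 22.2% lower of all tested genes (median log2 fold change 0.31). Tnc, which encodes the matrix glycoprotein tenascin C, rose from 7.40 ± 0.208 to 17.9 ± 1.07 (SD, n = 4 each), or by 1.16 on the log2 scale (limma adjusted p = 4.30e-07). The collagen cross-linking oxidases Lox and Loxl2 rose by 0.89 and 0.59 (limma adjusted p = 0.000807 and 0.00237), and Col5a1 by 0.36 (limma adjusted p = 0.0054). The fibrillar collagens Col1a1, Col1a2 and Col3a1, named after their values were seen, did not pass the test, with log2 differences of 0.19, -0.19 and -0.20. Without WT replicate 4, 2 matrix genes fell in place of 1.

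**Figure D4:**
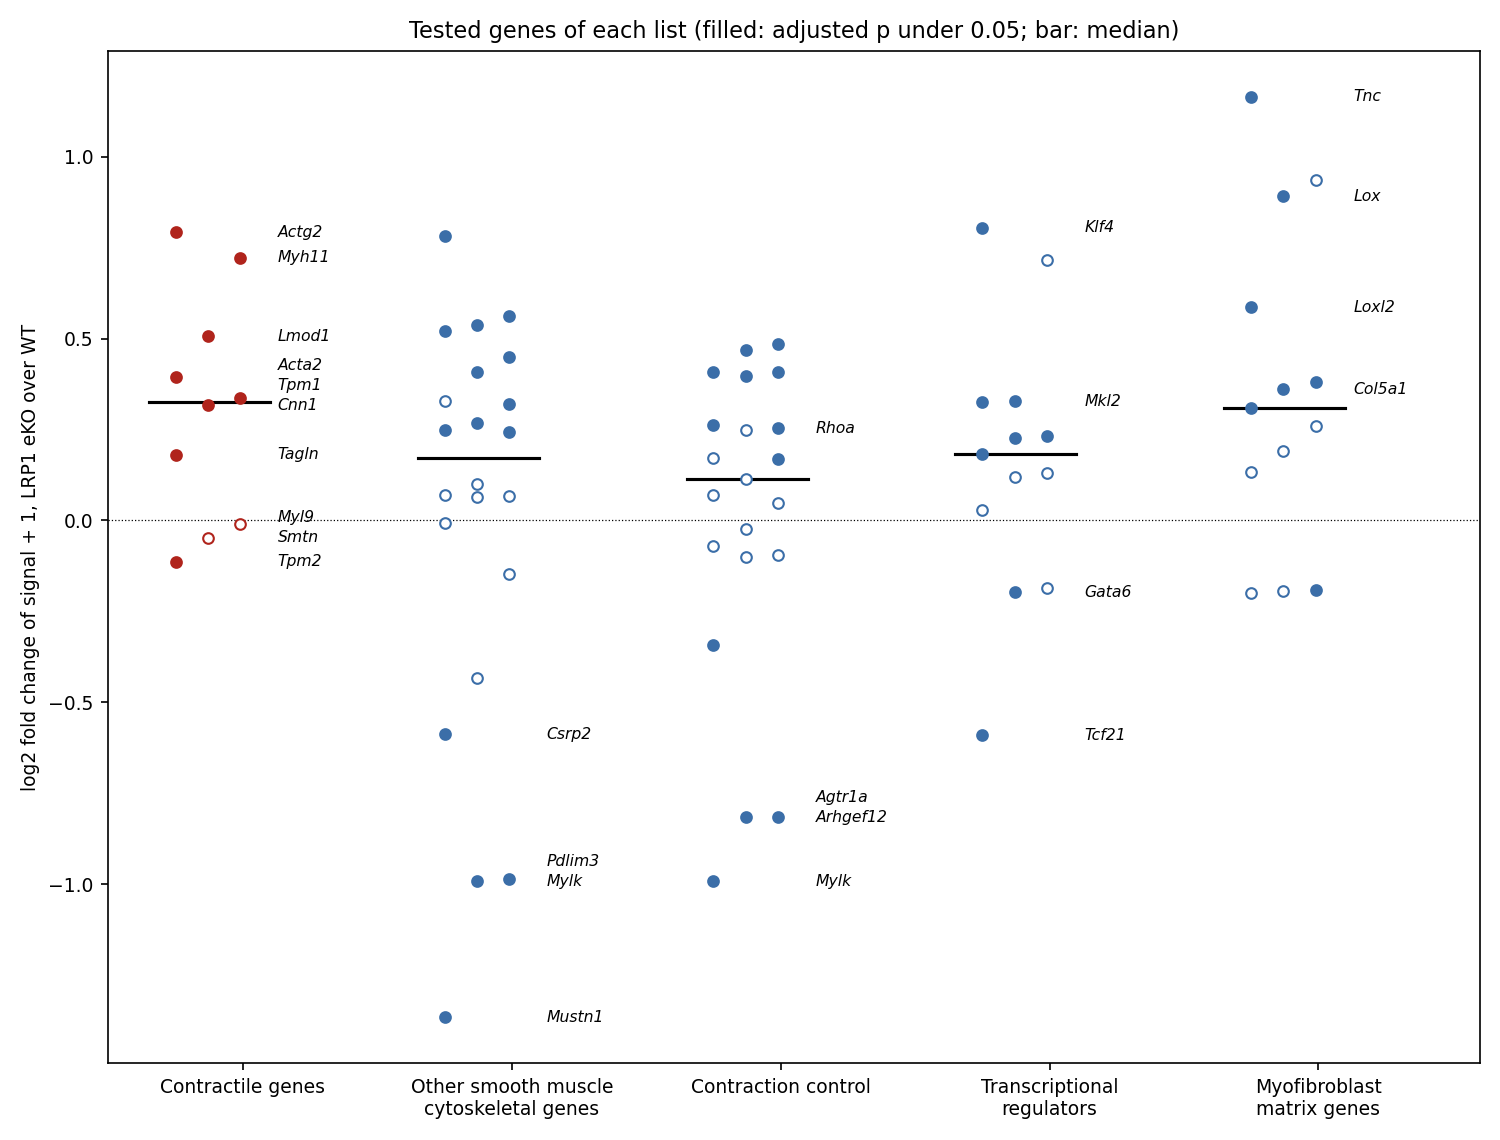
Log2 fold change of signal + 1, LRP1 eKO over WT, of each tested gene of the contractile genes and of 4 lists (filled: limma adjusted p under 0.05; black bar: median). Genes named by rule are labelled. Mylk, at -0.99, stands in both the cytoskeletal and the contraction control list.

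Markers of other cells that make contractile proteins were examined in the same libraries. For the counts of calls given here, the shares of all tested genes were 19.0% higher and 22.2% lower. The summed signal of the 10 contractile genes was 2602 to 2688 in WT and 3106 to 3203 in LRP1 eKO libraries. Mural cell markers were low, with sums of 24.8 to 27.4 in WT and 26.4 to 29.3 in LRP1 eKO libraries, 5 of 10 under a signal of 1 in every library, and 1 of the 4 tested genes higher. Pdgfrb, a receptor of pericytes, was most of each sum (15.2 to 16.8 in WT, 15.7 to 17.2 in LRP1 eKO libraries). Its log2 difference was 0.04 (limma adjusted p = 0.577). The 1 that rose was Mcam, by 0.26 on the log2 scale (limma adjusted p = 0.0155). Below the filter, Rgs5 was at most 0.212 and Cspg4 at most 1.04, and both were higher in every LRP1 eKO library than in any WT library, with ratios of means of 3.06 and 1.21 and limma adjusted p = 0.0128 and 0.0781 without the filter. Of the 10 mural means, 8 were higher and 2 lower in LRP1 eKO libraries, and their part in the result was not tested. Stellate cell markers summed to 824 to 880 in WT and 672 to 740 in LRP1 eKO libraries, with 4 of 6 tested genes lower and 1 higher. Most of each sum was Dcn, at 554 to 581 in WT and 441 to 486 in LRP1 eKO libraries. Ecm1, the next largest, overlapped between groups, at 159 to 167 and 152 to 205 (limma adjusted p = 0.146). Lrat, the retinol-esterifying enzyme that defines quiescent stellate cells, was at most 0.201. Mesothelial markers summed to 2361 to 2846 in WT and 3033 to 3355 in LRP1 eKO libraries. Of 10 tested, 2 were higher and 2 lower, near the shares of all tested genes, with a median log2 fold change of -0.09. The higher ones were Msln and Upk1b, with log2 fold changes of 0.36 and 0.33 (limma adjusted p = 0.00746 and 0.00102). The lower ones were Podxl and Bnc1, with -0.39 and -0.24 (limma adjusted p = 0.000421 and 0.0293), and the part of these cells in the result was not tested. Mcam, Rgs5, Cspg4, Podxl and Bnc1 were named after their values were seen.

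The summed markers of skeletal and of cardiac muscle were lower in LRP1 eKO libraries, the cardiac sum through Tnnt2. For the counts of calls given here, 19.0% of all tested genes were higher and 22.2% lower. The summed signal of 15 skeletal muscle genes was 49.0 to 77.4 in WT, highest in WT replicate 4, and 15.0 to 16.5 in LRP1 eKO libraries, and 6 of 6 tested genes fell, against 22.2% of all tested genes. Of these, Atp2a1 and Tnnc2 passed the filter only through WT libraries and could only fall, and 4 of 4 fell without them. The fast light chain Myl1 fell from 13.7 ± 4.27 to 1.90 ± 0.190 (SD, n = 4 each). Cardiac muscle genes summed to 20.6 to 22.5 in WT and 10.1 to 13.7 in LRP1 eKO libraries. Tnnt2 was the largest part of each sum, at 16.4 to 16.9 in WT and 5.07 to 7.99 in LRP1 eKO libraries. Of 3 tested genes 2 were lower, or 1 of 2 without Myh7, which passed the filter only through WT libraries. Of the 10 cardiac means, 4 were higher and 6 lower, and Myl7 had a log2 difference of 0.39 (limma adjusted p = 0.0557). Tpm1, Tpm2, Actc1, Mustn1 and Pdlim3 are also made by striated muscle, and the part of these cells in their values was not tested. Macrophage markers summed to 113 to 222 in WT and to 734, 52.8, 671 and 393 in LRP1 eKO replicates 1 to 4, with 1 of 9 tested genes higher. Hepatocyte markers summed to 1493 to 1544 in WT and 615 to 901 in LRP1 eKO libraries, with 6 of 6 tested genes lower. EC markers summed to 25.6 to 28.9 in WT and 24.9 to 49.7 in LRP1 eKO libraries, with 1 of 8 tested genes higher. Cholangiocyte markers summed to 301 to 356 in WT and 233 to 696 in LRP1 eKO libraries, with 1 of 3 tested genes lower, and included Spp1, also a macrophage gene, at means of 163 and 378.

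**Figure D5:**
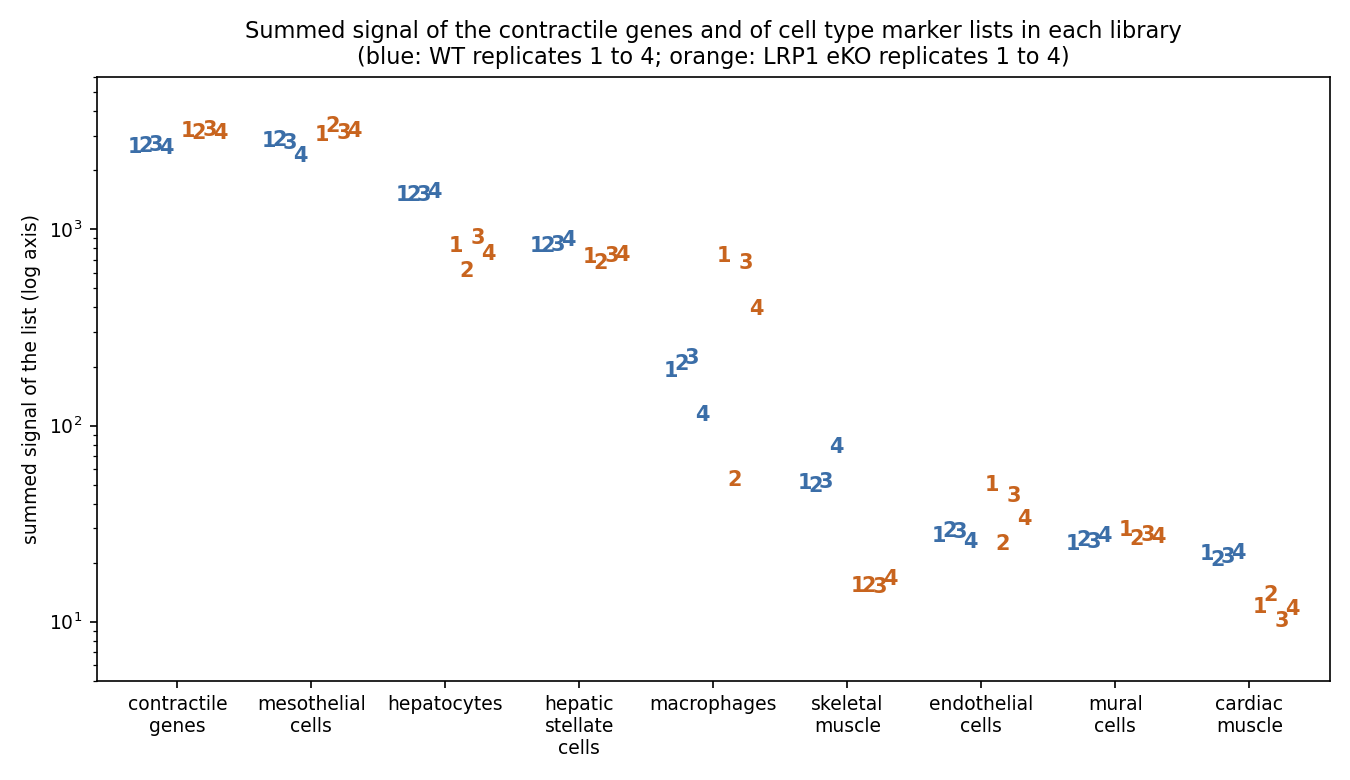
Summed quantile-normalized signal (log axis) of the contractile genes and of 8 cell type marker lists in each library. Digits give the replicate number, blue for WT and orange for LRP1 eKO. The sums of the contractile genes and of the mesothelial list are higher in all LRP1 eKO libraries. Those of the skeletal muscle, cardiac muscle, hepatocyte and stellate lists are lower. Tnnt2 is the largest part of the cardiac sum and Dcn of the stellate sum. The macrophage list spreads from 52.8 to 734 among LRP1 eKO libraries.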

How the data were processed

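The authors deposited a quantile-normalized signal per protein-coding gene, with 1 column for each of the 8 libraries, all of which were used. The labels list TopHat2, Cufflinks and mm10 without their roles, the methods of the study give STAR and featureCounts, and neither describes this table, so that the unit before normalization is unknown and a shift of all genes between genotypes is removed. As the signal is no count, limma 3.58.1 in R 4.3.3 replaced the count test of the methods, on log2(signal + 1) with a mean-variance trend, genotype as the only term after removing genes that reached a signal of 1 in fewer than 4 libraries. The contractile genes and all lists were chosen with earlier results of these data known. Text names all contractile genes, tested paralogs, and up to 4 genes with the smallest adjusted p of each other list. It also names some leading markers, Lrp1 and the 5 genes most like and most opposed to Acta2. Other genes named were chosen after their values were seen. Acta1 and Foxf1 were not analysed here. Lists are described by counts and medians, without a set test. The fit was tested on simulated data. Positions and transcripts came from GENCODE M21, promoters from RefSeq (GRCm38.p6). Depth is unknown, so that no counting interval was computed. Alternatives changed the pseudocount (0.1 or 5), the filter (none, or a mean signal of 5 or more), the trend, the moderation (robust), the weights of the libraries, the centring (a mean without the outer 30% on each side), the block (replicate number), the mean (arithmetic) or the libraries. Figures used matplotlib 3.10.9 in Python 3.11.15.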

Additional observations from a re-analysis of the deposited data

Results flagged for a closer look

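Among the genes named by rule other than markers, 84 groups of 4 libraries were searched with Dixon's test for 1 library set apart from its group, and 10 were found, where chance gives 4.2. Each value divides the gap between that library and its nearest neighbor by the whole range. Of the contractile genes 1 was found, Actg2, whose WT replicate 4 was highest (0.909, signal 10.1). WT replicate 4 was also highest for Tcf21 (0.858), Smtnl2 (0.934) and Tmod1 (0.928). It was lowest for Arhgef12 (0.964), Tmod3 (0.954), Cnn3 (0.902), Lox (0.937) and Loxl2 (0.950). LRP1 eKO replicate 2 was highest for Tnc (0.946).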

How the results depend on the processing

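Depth is unknown, so that what it limits cannot be given. Acta2, Actg2, Tagln, Lmod1 and Tpm1 kept their direction and an adjusted p below 0.05 under every alternative with a test. Myh11 did so too, but it passed the filter only through LRP1 eKO libraries, which set its direction in the filtered fits. Lmod1 and Myh11 were not tested at a minimum mean signal of 5. Of 758 values of single genes under an alternative, 717 kept direction and side of the threshold, 27 lost their call, 2 moved in size (Myh11 to 1.52 and Lmod1 to 0.62, as the log2 of a ratio of arithmetic means) and 12 changed sign. Those that changed sign, in genes that did not pass the test, were the log2 fold change of Myl9 (0.059 with array weights, 0.091 with WT replicate 4 and LRP1 eKO replicate 2 both left out, and -0.055 to 0.042 with 1 library left out), the log2 fold change of Tpm3 (-0.0123, -0.023 and -0.00037 to 0.047) and the log2 fold change of Tmod1 (-0.032 to 0.10 with 1 library left out).

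Of the contractile genes, 7 were higher and 1 lower as reported, with 5 to 7 and 0 to 1 over the alternatives. Tpm2 was not called without a trend or with the replicate number as a block, so that 0 genes were lower in both, and 0 to 1 with 1 library left out. Past 2-fold, 1 gene passed with a pseudocount of 0.1. The number of contraction control genes that rose was 5 without the filter, and of regulators 3 without the filter and 2 to 7 with 1 library left out, while 1 regulator fell at a minimum mean signal of 5. At that minimum 2 paralogs fell. Matrix genes that fell were 0 without the filter, 2 with array weights, 2 with both libraries left out, and 1 to 2 with 1 library left out. The cause was not tested, apart from the fewer or more genes tested with another filter. With the replicate block, 7 contractile genes rose, Tpm2 and Myl6 were not called (limma adjusted p = 0.0905 and 0.0612), and the block changed no other count of calls by over 1.5 times. The deviations of same-numbered libraries of the 2 genotypes correlated at -0.086, -0.13, 0.18 and 0.038, and those of differently numbered libraries between -0.26 and 0.21. Such values cannot show whether same-numbered libraries shared a litter or a preparation.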
